A study of Mus musculus with 41 samples.

Results

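The 15 epithelial tumors examined here came from mice that ate a high fat diet (HFD) through puberty and then either stopped or stayed on it. Of the 41 tumors on arrays, 7 were from the HFD-LFD regimen, in which HFD was replaced by a low fat diet (LFD) at 10 weeks of age, and 8 were from the lifelong HFD regimen. They were chosen by their labels alone, as all tumors of these regimens with the morphology term p53 variable, which was read as epithelial. HFD supplied 60% and LFD 10% of energy as fat, and diets started at 3 weeks. In both groups the tumor grew from a Trp53-null BALB/c mammary fragment placed in the cleared inguinal fat pad of a wild-type female BALB/c mouse at 3 weeks, so the host kept Trp53 and its own fat, vessels and immune cells while the transplanted epithelium lacked the gene. Fragments from 4 donors were spread over the regimens, and which tumor came from which donor was not analysed here. The question is what the adult diet, changed at week 10, goes with in the tumor once puberty on HFD is shared. Tumors found before 52 weeks are called early and the others late: the HFD-LFD group held 3 early and 4 late tumors, and the HFD group 4 of each. Tumors are numbered 1 to 7 in HFD-LFD and 1 to 8 in HFD, in the order in which they were deposited.

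Each array carried the RNA of 1 tumor and a common mouse reference RNA in the other dye. Values are log2 ratios of tumor to reference, and every difference is the HFD-LFD mean minus the HFD mean on that scale, with its standard error from the limma fit. The labels put the tumor in the red dye, Cy5, and the study's methods put the reference there; the labels were followed, so all directions rest on them. The tumors are from females, and the median ratio of 5 Y-linked probes, read from red over green, was below 0 on 12 of the 15 arrays. The 15 arrays lay on 5 slides, each of which held only 1 of the 2 regimens among these tumors, so that slide and regimen cannot be told apart. In HFD-LFD all early tumors shared a slide and all late tumors shared another, so slide and onset cannot be told apart there either. The arrays were scanned in 2 sessions. HFD tumors 2 and 5, both early, were the only ones in session 2, so session also runs with regimen among early tumors. Between 52.38% and 94.87% of probes were well above background in HFD-LFD and between 64.42% and 76.81% in HFD, which did not separate the groups (exact permutation test, two-sided p = 0.245). HFD tumor 5 stood apart, with 22.02% of its spots marked as outliers and a mean correlation of 0.507 with the other arrays, against 0.707 to 0.827 for the rest. The deposited matrix and scanner files disagreed over the names of HFD tumors 1, 4 and 7. The scanner file names were used, and the disagreement can touch the comparisons by onset but not the one by regimen. Markers of the epithelium were well above background in both groups for 7 of 7 genes, and markers of adipocytes, muscle, endothelium, macrophages, T cells, B cells, neutrophils, fibroblasts and Schwann cells were measured in these tumors too.

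Dietary fat reaches a mammary tumor by several routes that are known as background. Adipocytes of the fat pad store it and secrete adipokines, macrophages and neutrophils respond with cytokines such as interleukin 1 and tumor necrosis factor, and fibroblasts and endothelial cells build the stroma and vessels around the epithelium. Making ribosomes is a separate marker of growth: ribosomal RNA is cut from a long precursor in the nucleolus with the help of small RNAs and proteins, and several of the genes with the smallest p-values below belong to it.

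The RNA with the smallest p-value among those higher in HFD-LFD was Rmrp, the RNA part of the enzyme RNase MRP, which cuts the ribosomal RNA precursor. It is a short non-coding RNA, and 1 probe on the array reads it, from bases 43505847 to 43505906 of chromosome 4 on the minus strand (NCBI37). Its sequence is shown because it is the piece of the RNA that the array measures, and 33 of its 60 bases are G or C.
Rmrp probe: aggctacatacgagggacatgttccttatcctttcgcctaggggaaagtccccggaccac

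In the HFD-LFD tumors the Rmrp ratio was 0.86 at the lowest, 1.45 at the median and 2.02 at the highest, and in the HFD tumors it was -0.08, 0.68 and 0.92. The groups touched at a single tumor, late HFD-LFD tumor 4, which lay below 2 of the HFD tumors. The difference was 0.91 ± 0.18, and its adjusted p over all genes was 0.18, above the limit of 0.10 used here.

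No gene passed that limit in the comparison of 7 HFD-LFD with 8 HFD epithelial tumors. Of 24519 genes tested with limma and Benjamini-Hochberg adjustment, 0% were called higher and 0% lower, and the smallest adjusted p was 0.157. Without adjustment, 875 genes were higher (3.57%) and 1215 lower (4.96%) at p under 0.05. Differences lay above 0 for 48% and below 0 for 52% of genes, with a median of -0.01. Groups did not overlap for 12 genes higher in HFD-LFD (0.0489%) and 15 lower (0.0612%). The scanner software's own processed signals gave 5 genes called, 3 of them lower, and the authors' matrix gave 164 called, 35 of them lower. So the genes below are given by their values in each tumor; those of this comparison are the 10 of smallest p in each direction.

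Genes of ribosome production stood among those with higher ratios in HFD-LFD. Rps16, a protein of the small ribosomal subunit, measured 0.56, 0.81 and 1.24 (lowest, median, highest) in HFD-LFD and 0.20, 0.43 and 0.57 in 7 HFD tumors with a usable spot, with a difference of 0.46 ± 0.09 (adjusted p = 0.19). Nop56, a core protein of the particles that guide methylation of ribosomal RNA, measured 1.66, 2.12 and 2.24 against 1.19, 1.45 and 1.86 in 7 HFD tumors. Its difference was 0.53 ± 0.11 (adjusted p = 0.33), but its 3 probes ranged from -0.09 to 0.53 and so disagreed. Esf1, a nucleolar protein needed for processing of ribosomal RNA, measured 0.82, 1.15 and 1.20 against 0.01, 0.60 and 0.94, a difference of 0.52 ± 0.11 (adjusted p = 0.33). In these 3 genes the lowest HFD-LFD tumors overlapped the highest HFD tumors. Rps16 has near-identical copies in the genome, and a probe cannot tell which copy gave the signal.

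To see whether this held for the machinery as a whole, 83 ribosomal protein genes and 20 genes of the small nucleolar particles and the nucleolus were listed after the values above were seen. Of the ribosomal protein genes, 50 were above 0 and 33 below, beside 48% of all genes above, and 12 were higher and 3 lower at p under 0.05, beside 3.57% and 4.96% of all genes, and their median difference was 0.08 (-0.01 in the authors' matrix). The nucleolar genes split 10 to 10 with a median of -0.02, and 2 were higher and 0 lower at p under 0.05, beside the same shares of all genes. Both lists were prompted by the genes above, so they are not separate support.

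The other leading genes with higher ratios were spread over transport and gene regulation. Arl5b, a small GTPase of traffic at the Golgi, measured 0.58, 0.97 and 1.39 in HFD-LFD against -1.12, -0.03 and 0.69 in HFD, a difference of 1.01 ± 0.22 (adjusted p = 0.33). Fam126b, of the hyccin family that helps place a lipid kinase at the cell membrane, measured 0.72, 0.80 and 1.32 against -0.42, 0.32 and 0.64. It was the only one of the 10 whose groups did not overlap, with a difference of 0.69 ± 0.16 (adjusted p = 0.44). Ctbp2, a transcriptional corepressor, differed by 0.70, Macroh2a2, a histone variant of silent chromatin printed on the array as H2afy2, by 0.76, Gtdc1 by 0.53 and the zinc finger gene Zfp260 by 0.51. All 10 of these genes had differences above 0 among early and among late tumors. They were chosen on these same tumors pooled, which favors such agreement, so it is not separate support.

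**Figure D1:**
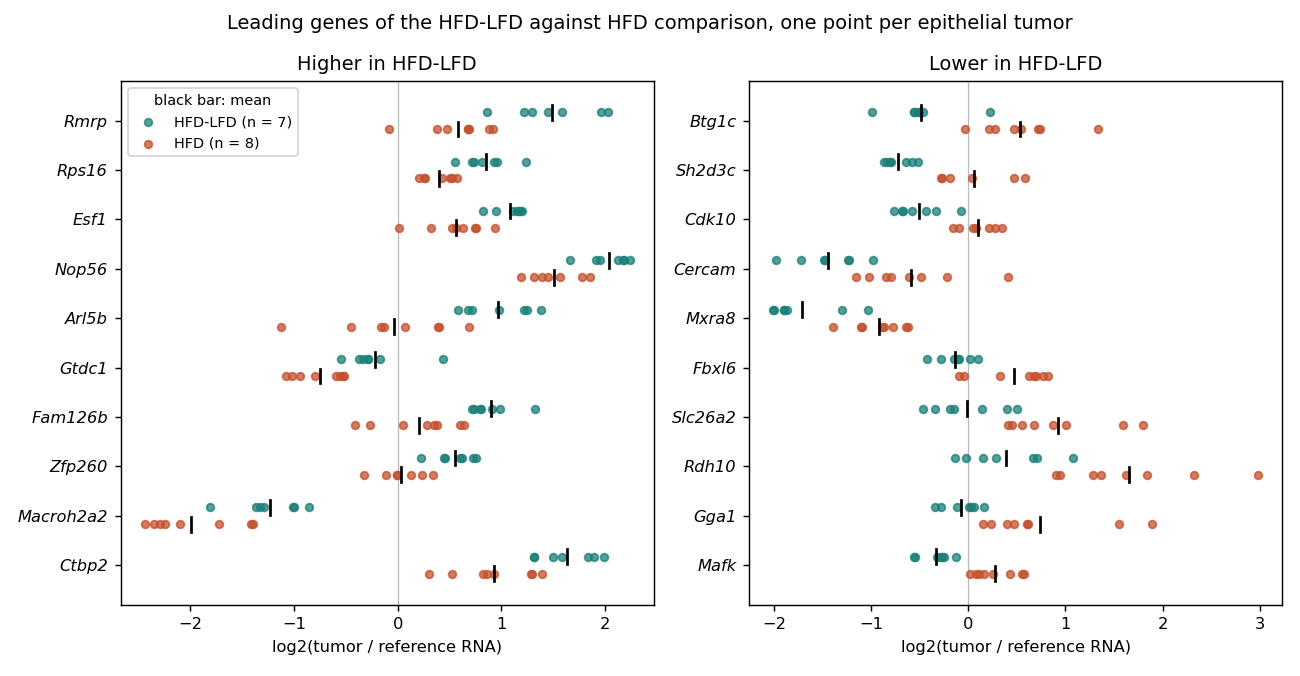
Log2 ratio of tumor to reference RNA for the 10 genes of smallest p in each direction, 1 point per epithelial tumor (7 HFD-LFD, 8 HFD) and a bar at each mean. Only Fam126b, Sh2d3c and Mafk show groups that do not overlap, and none of the 20 passed the adjusted limit of 0.10.

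Among genes with lower ratios in HFD-LFD, Btg1c (4930430D24Rik on the array, probe at 35391386 to 35391445 of chromosome X, NCBI37) had the smallest p-value. Its ratio was -0.99, -0.52 and 0.23 in HFD-LFD against -0.03, 0.50 and 1.34 in HFD, a difference of -1.01 ± 0.19 (adjusted p = 0.16), or -2.25 with processed signals. The overlap came from early HFD-LFD tumor 1 at 0.23, and the probe was well above background in 5 of 7 HFD-LFD tumors.

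Sh2d3c, an adaptor protein of cell adhesion and migration (probe at 32610434 to 32610493 of chromosome 2), measured -0.87, -0.80 and -0.52 in HFD-LFD against -0.28, -0.07 and 0.58 in 6 HFD tumors with a usable spot. Its groups did not overlap, and the difference was -0.78 ± 0.14 (adjusted p = 0.16). Mafk, a small Maf factor that pairs with the regulators of the oxidative stress response, also had groups that did not overlap, with -0.56, -0.28 and -0.12 against 0.02, 0.21 and 0.57 and a difference of -0.61 ± 0.15 (adjusted p = 0.44). Rdh10, which makes retinal on the way to retinoic acid, had the largest difference of the 20 genes, at -1.27 ± 0.31 (adjusted p = 0.44). It measured -0.14, 0.28 and 1.08 in HFD-LFD and 0.91, 1.5 and 2.99 in HFD, so the groups overlapped.

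The other 6 genes with lower ratios are given by their differences. Cercam, named for its part in the adhesion of brain endothelium, differed by -0.86, the matrix-remodelling gene Mxra8 by -0.79, and the sulfate transporter Slc26a2 by -0.93. The cell cycle-related kinase Cdk10 differed by -0.61, the F-box gene Fbxl6 by -0.61, and Gga1, an adaptor of Golgi transport, by -0.81. All 10 had differences below 0 in early and in late tumors, which again were the tumors that they were chosen on. In spindle cell tumors of the same regimens, 3 against 3, the direction was the same for 4 of the 10 higher and 7 of the 10 lower genes, beside 49.2% of all genes, and 0 of 24510 genes passed in that contrast with limma (243 higher, 0.991%, and 248 lower, 1.01%, at an unadjusted p under 0.05).

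The study followed several processes by staining tumor sections and compared regimens that included HFD with LFD. In early epithelial tumors it found proliferation raised over LFD in HFD-LFD but not in HFD, and in late ones in both. Apoptosis was below LFD in HFD and LFD-HFD, over all tumor types. The RNA of the genes for these processes, here compared between HFD-LFD and HFD with both onsets pooled, did not pass the test. Pcna, the clamp of the DNA polymerase, differed by 0.15 ± 0.19 (adjusted p = 0.85) and the proliferation marker Mki67 by 0.22 ± 0.23 (adjusted p = 0.80). Pecam1, the vessel marker CD31, differed by -0.43 ± 0.22 (adjusted p = 0.60), and Adgre1, which encodes the macrophage marker F4/80 and is printed as Emr1, by -0.22 ± 0.27 (adjusted p = 0.83). The widest gap was in Arg1, arginase 1 of alternatively activated macrophages, which measured -4.60, -2.68 and -1.50 in HFD-LFD and -2.38, -1.46 and 0.77 in 6 HFD tumors, a difference of -1.63 ± 0.64 (adjusted p = 0.53). In the study's sections, macrophages stained for Arg1 rose more over LFD in HFD-LFD than in HFD, the other direction. Stained cells and RNA of the whole tumor are unlike measures. Across all 24 genes of cell division and DNA replication the median difference was 0.04, with 12 above and 12 below 0. Birc5 (survivin) was among the 2 at p under 0.05, with a difference of 0.59, though its 3 probes ranged from -0.18 to 0.59. The transplanted epithelium lacks Trp53, and the Trp53 probe measured -0.89 to 0.87 in HFD-LFD and -0.04 to 1.41 in HFD. A list of Trp53 and its targets had 4 of 14 genes above 0, beside 48% of all genes, and a median of -0.19. Of its members, Btg2 (-0.50) and Bax (-0.43) were lower at p under 0.05, beside 4.96% of all genes.

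Adipocyte genes were the list with the highest median. Of 14 genes, 13 were above 0, beside 48% of all genes, and the median difference was 0.70 against -0.01 for all genes. At p under 0.05, 3 were higher and 0 lower, beside 3.57% and 4.96% of all genes. The 3 were Adrb3, the beta-adrenergic receptor of fat cells (1.20), the carbonic anhydrase Car3 (1.06) and Pparg, the master regulator of adipocyte identity (0.49). None passed after adjustment. Adipoq, which encodes adiponectin, differed by 0.92, Cfd, which encodes adipsin, by 1.44 and the lipid droplet gene Plin1 by 0.74. Cidea was the member below 0, at -0.48. Lep, which encodes leptin, differed by 0.02 and its probe was well above background in 4 HFD-LFD and 3 HFD tumors.

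The high adipocyte levels lay in 3 of the 7 HFD-LFD tumors. The mean log2 ratio of the adipocyte list was -0.59 in early tumor 6 and -1.09 and -1.10 in late tumors 7 and 3, all above the highest HFD tumor at -1.75. The other HFD-LFD tumors, from -3.33 to -2.08, lay in or near the HFD range of -3.25 to -1.75. Adrb3, itself a member of the list, was highest in the same 3 tumors, at 1.66 in tumor 6, 1.0 in tumor 3 and 0.74 in tumor 7. Every other tumor of both groups lay between -2.36 and -0.55. LFD and LFD-HFD tumors had mean adipocyte levels of -2.68 and -2.67. In bulk RNA, more cells of a type and more RNA per cell cannot be told apart. Beside this, 6 of 7 epithelial markers were below 0 with a median difference of -0.49 and 0 at p under 0.05, and their part in the adipocyte levels was not tested. Without tumor 6 the median of the adipocyte list was 0.49, and among early tumors alone it went from 1.07 to 0.25.

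The highest members of 3 metabolic lists were genes that adipocytes also use. Lpl, the lipase that releases fatty acids from lipoproteins, differed by 1.06 ± 0.42, Slc2a4, the insulin-responsive glucose transporter, by 1.08 ± 0.45 and Thrsp, an inducer of fatty acid synthesis, by 1.39 ± 0.67, each at p under 0.05 without adjustment. The lists they belong to had medians nearer to 0. Fatty acid uptake and oxidation had 17 of 28 genes above 0, beside 48% of all genes, and a median of 0.07, with Slc27a1, a fatty acid transporter, at -0.65. Cholesterol and fatty acid synthesis had 18 of 26 below 0, beside 52% of all genes, and a median of -0.15. The insulin and IGF pathway had 12 of 22 below 0 and a median of -0.09, with Igfbp3, an IGF-binding protein, at -0.98.

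Subunits of the mitochondrial respiratory chain were above 0 for 17 of 26 genes, beside 48% of all genes, with a small median of 0.10. At p under 0.05, 4 were higher and 0 lower, beside 3.57% and 4.96% of all genes. Cox7a2 of complex IV had the largest difference, with -0.60, -0.11 and 0.39 in HFD-LFD against -1.19, -0.83 and -0.34 in 7 HFD tumors (0.65 ± 0.17, adjusted p = 0.44). Ndufb8 of complex I differed by 0.50, Uqcrc2 of complex III by 0.37 and Sdhd of complex II by 0.29. HFD tumor 5 had the lowest chain level of its group, at -2.86 with the next at -1.33, and without it and HFD tumor 2, the other array of its slide, the list's median was 0.04.

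**Figure D2:**
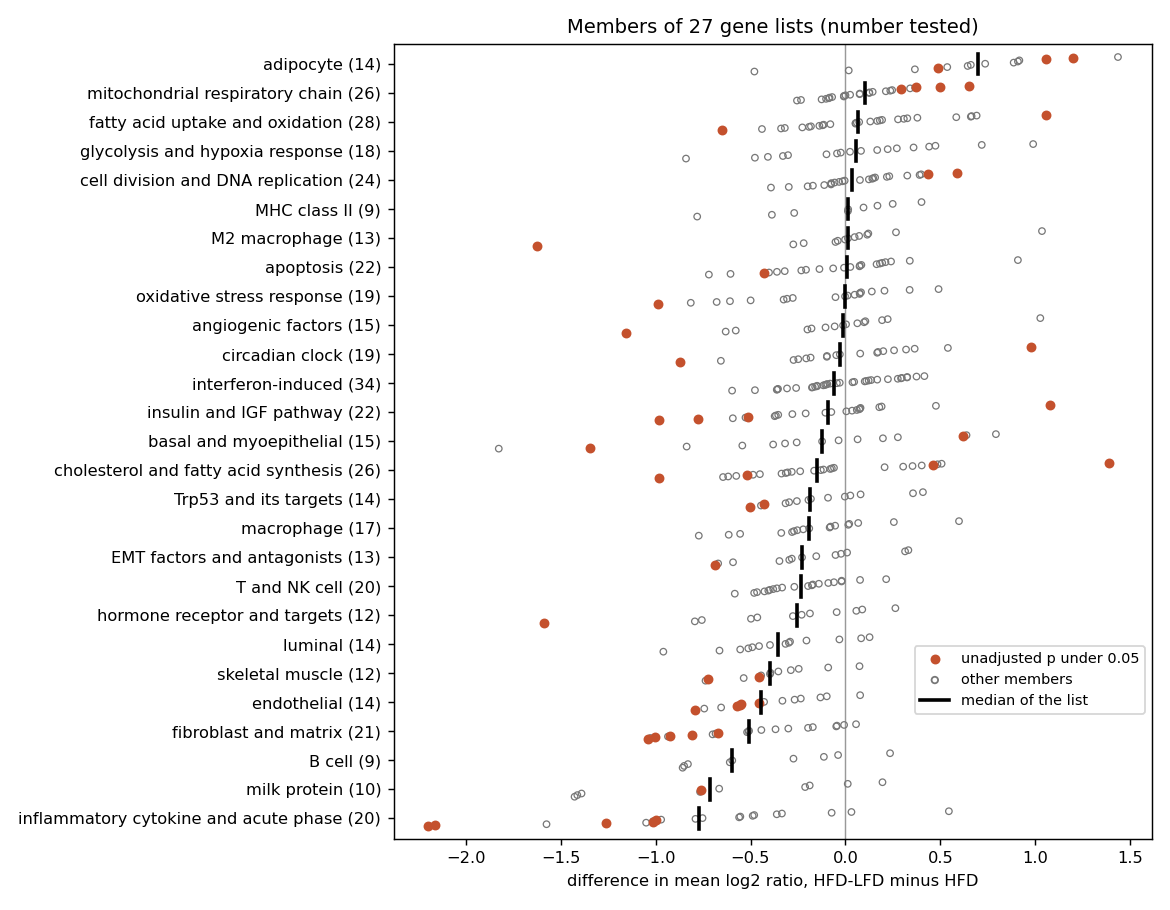
Difference in mean log2 ratio between HFD-LFD and HFD epithelial tumors for each member of 27 gene lists, with the number tested in parentheses. Filled points have an unadjusted p under 0.05 and black bars are list medians, which run from -0.77 for inflammatory cytokines and acute phase genes to 0.70 for adipocyte genes.

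Vessel and stroma lists lay on the other side. Of 14 endothelial genes 13 were below 0, beside 52% of all genes, with a median of -0.44, and 5 were lower and 0 higher at p under 0.05, beside 4.96% of all genes lower. Those were the receptor Tie1 (-0.56 ± 0.16), the sialomucin Emcn (-0.79 ± 0.31), Egfl7 (-0.46), the fenestral diaphragm gene Plvap (-0.57) and the junction gene Esam (-0.55), none called after adjustment. Kdr, the main VEGF receptor, was the member above 0, at 0.08. The mean ratio of the endothelial list was -1.75, -1.07 and -0.97 (lowest, median, highest) in HFD-LFD and -1.13, -0.78 and 0.56 in HFD. LFD tumors stood at -1.32 ± 0.32 (SD, n = 8) and LFD-HFD tumors at -1.14 ± 0.25 (SD, n = 6), nearer to HFD-LFD than to HFD. The highest HFD tumor was again tumor 5, without which the median was -0.36. Angiogenic factors, the signals sent to vessels, split 7 to 8 with a median of -0.01, and Thbs2, an inhibitor of vessel growth, differed by -1.16.

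Fibroblast and matrix genes were below 0 for 20 of 21, beside 52% of all genes, with a median of -0.51 and 5 lower at p under 0.05, beside 4.96% of all genes. Pdgfrb, the receptor of pericytes and fibroblasts, differed by -1.0 ± 0.28, the surface antigen Thy1 by -0.81 ± 0.24, and the matrix genes Col6a3, Col1a2 and Fbn1 by -1.04, -0.92 and -0.67. The member above 0 was Lum, at 0.06. The list's mean ratio was -2.37, -1.75 and -1.08 in HFD-LFD and -1.88, -1.41 and -0.39 in HFD, so that the groups overlapped widely. Without late HFD tumor 6, the highest of them, the median was -0.36. The list's level averaged -1.82 in HFD-LFD and -1.35 in HFD, beside -1.98 in LFD and -1.80 in LFD-HFD tumors. Skeletal muscle genes, which mark body wall muscle next to the fat pad, were below 0 for 11 of 12 (median -0.40), beside 52% of all genes, with Acta1 at -0.73 ± 0.25.

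**Figure D3:**
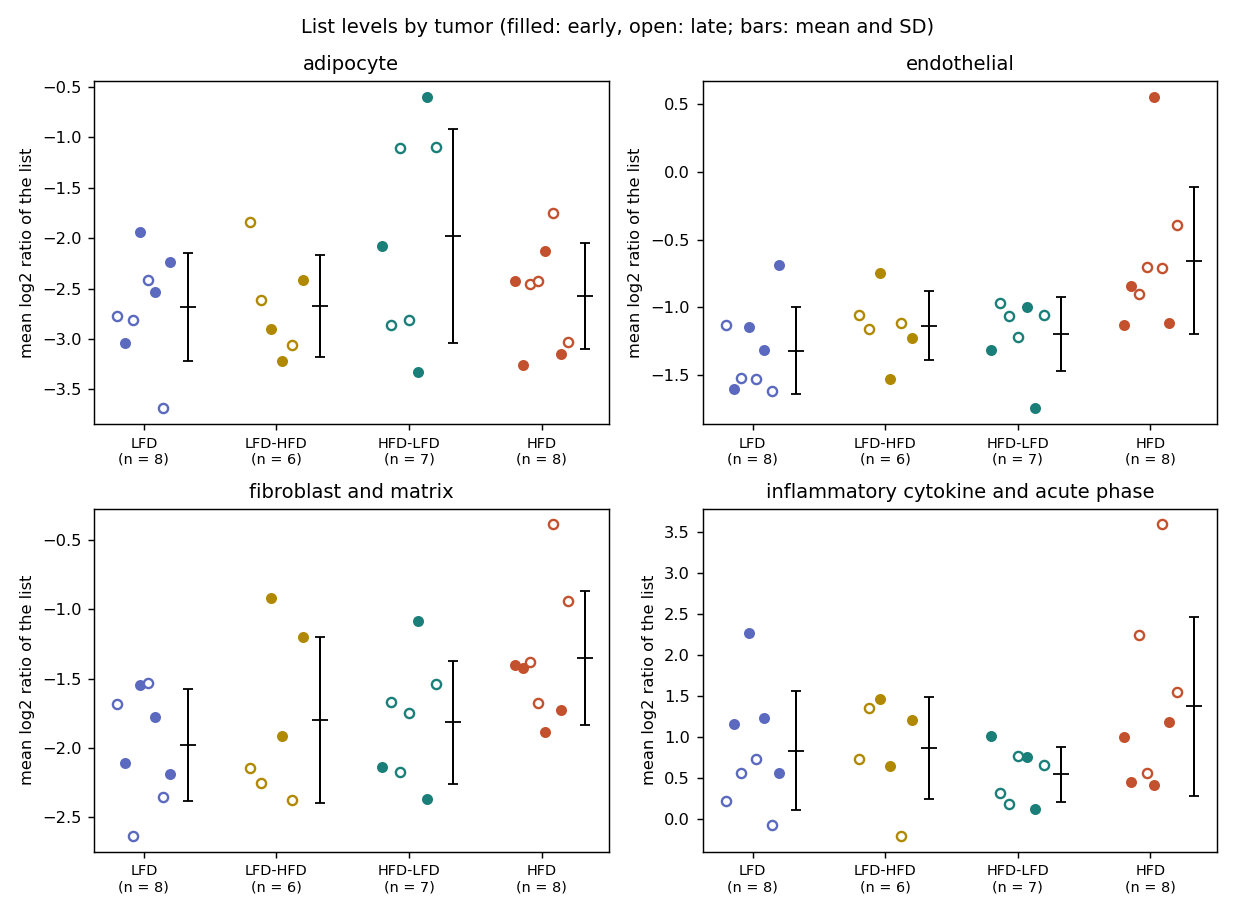
Mean log2 ratio of 4 gene lists in each of the 29 epithelial tumors by regimen, filled for early and open for late tumors, with mean and SD. The 3 highest adipocyte levels are HFD-LFD tumors 6, 7 and 3, and the highest endothelial level is HFD tumor 5.

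Of the immune lists, the inflammatory one had the most genes at p under 0.05. Beside 52% of all genes below 0, T and NK cell genes were below 0 for 18 of 20 (median -0.23). B cell genes were below 0 for 8 of 9 (median -0.60, or 0.02 with processed signals), with 0 at p under 0.05 in either list. Macrophage genes had 12 of 17 below 0 and a median of -0.19, and genes of alternatively activated (M2) macrophages 6 of 13 and a median of 0.01. MHC class II genes had a median of 0.01 and interferon-induced genes one of -0.06. Inflammatory cytokine and acute phase genes were below 0 for 18 of 20, with the lowest median of the lists at -0.77. Beside 4.96% of all genes, 5 of these 20 were lower at p under 0.05. These were Tnf (-1.0), Il1b (-1.26), Il1a (-1.01) and the neutrophil proteins S100a8 (-2.16) and S100a9 (-2.20).

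The inflammatory difference lay in late tumors. Among these 18 of 20 genes were below 0, beside 50.4% of all genes, and 15 were lower at p under 0.05, beside 4.85% of all genes in the late comparison, with a median of -1.64. Among early tumors the median was 0.00 with 0 genes at p under 0.05. Il1b differed by -2.27 ± 0.59 in late and -0.14 in early tumors, the acute phase gene Saa3 by -2.92 and 1.05, the chemokine Ccl3 by -1.68 and 0.25, and the neutrophil-attracting Cxcl5 by -3.01 and 0.00. None of these passed after adjustment, and neither did any gene of the list in the test of early minus late, where 7 of 20 were higher at an unadjusted p under 0.05, beside 4.34% of all genes.

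By tumor, the mean ratio of the inflammatory cytokine and acute phase list in late HFD tumors was 3.60 in tumor 6, 2.24 in tumor 3, 1.55 in tumor 8 and 0.56 in tumor 4, against 0.77, 0.65, 0.31 and 0.18 in the late HFD-LFD tumors. Late tumors of the regimens thus overlapped only through HFD tumor 4. The mean over late tumors was 1.99 in HFD and 0.48 in HFD-LFD, beside 0.36 in LFD and 0.62 in LFD-HFD. Late HFD tumors thus had the highest mean, and late HFD-LFD tumors lay near the other regimens. S100a9 was at 2.28 in HFD tumor 6 and 0.72 in HFD tumor 3, and between -3.98 and -3.37 in the other 2 late HFD tumors. Early tumors ran from 0.42 to 1.18 in HFD and from 0.12 to 1.01 in HFD-LFD. The late median was -0.96 without HFD tumor 6, -2.17 without HFD tumor 4, and -1.73 with the names of the authors' matrix. Neutrophil markers, S100a8 and S100a9 among them, were lower for 3 of 4 over all tumors with a median of -1.42, and the part of neutrophils in the list's difference was not tested. HFD tumors 3 and 6 shared a slide, and whether the slide has a part was not tested.

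**Figure D4:**
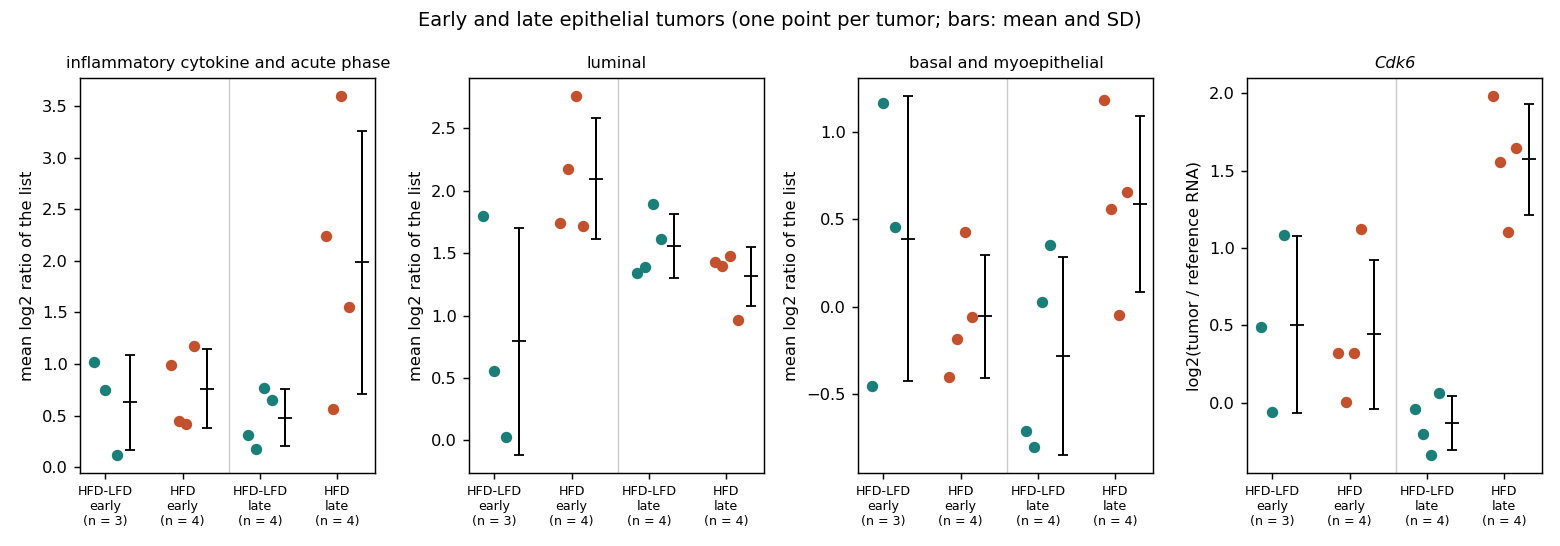
Mean log2 ratio of 3 gene lists and the log2 ratio of Cdk6 in early and late tumors of the HFD-LFD and HFD regimens, 1 point per tumor with mean and SD. Late Cdk6 values do not overlap between the regimens, and the inflammatory list is spread from 0.56 to 3.60 in late HFD tumors.

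Only Cdk6 passed the test within an onset class. Cdk6, the kinase that with D-type cyclins starts the cell cycle through the retinoblastoma protein, was measured by a probe at 3522106 to 3522165 of chromosome 5. Late HFD tumors measured 1.98, 1.65, 1.55 and 1.11, and late HFD-LFD tumors 0.06, -0.04, -0.20 and -0.34, so that the groups were far apart. Cdk6 was lower by 1.70 on the log2 scale in late HFD-LFD tumors than in late HFD tumors (limma, SE 0.27, adjusted p = 0.0346). Of all genes, 0.00408% were called lower in that comparison, which does not tell which late group moved. The probe was well above background in 4 of 4 late HFD but in 1 of 4 late HFD-LFD tumors. The lower level is thus near the limit of what the array reads, and the size of the difference is uncertain. The difference was -3.77 with processed signals and -1.48 with median centring.

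In early tumors the Cdk6 values of the regimens overlapped. They were 1.09, 0.49 and -0.06 in HFD-LFD and 1.12, 0.32, 0.32 and 0.00 in HFD, a difference of 0.06 ± 0.29. The test of early minus late gave 1.76 ± 0.39 with an adjusted p of 0.38, so the 2 onset classes were not shown to differ. Cdk6 was called in 20 of 27 alternatives, with adjusted p between 0.0122 and 0.293, and was not called with processed signals, with median centring, with the names of the authors' matrix, or without HFD-LFD tumor 2 or 3 or HFD tumor 3 or 8. The late fit called 0 genes higher and the early fit 0 in either direction, with 931 early genes higher (3.8%) and 1349 lower (5.5%), and 1299 late genes higher (5.3%) and 1190 lower (4.85%), at an unadjusted p under 0.05 in limma.

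Over all 15 tumors, luminal genes were below 0 for 12 of 14, beside 52% of all genes, with a median of -0.36. By onset the epithelial lineage lists had medians of opposite sign, though early and late HFD-LFD tumors also lay on separate slides. Luminal genes, which mark the cells that line the ducts, were below 0 for 13 of 14 in early tumors, beside 53.1% of all genes, with a median of -1.05, and 7 were lower at p under 0.05, beside 5.5% of all genes. They included the adhesion genes Cdh1 (-1.43) and Epcam (-1.88), the claudins Cldn7 (-1.62) and Cldn3 (-0.91) and the keratin Krt18 (-1.54). In late tumors the median was 0.19, with Cdh1 at 0.52 and Epcam at 0.78 and 0 genes at p under 0.05 in either direction. Basal and myoepithelial genes had a median of 0.59 in early and -1.09 in late tumors, with Krt5 at 2.24 and -1.57 and Krt17 at 2.39 and -2.01, none of these 4 values at p under 0.05.

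The low early luminal ratios were those of HFD-LFD tumors 5 and 6. The mean ratio of the luminal list was 0.55 in tumor 5 and 0.03 in tumor 6 but 1.80 in tumor 1, and the 4 early HFD tumors lay from 1.71 to 2.76. HFD-LFD tumors 5 and 6 may come from 1 mouse, since their labels share a number. Their arrays correlated at 0.807, where pairs among the 15 arrays ran from 0.421 to 0.911. Averaged to 1 tumor, tumors 5 and 6 left an early luminal median of -0.76, and the median was -0.65 without tumor 6 and -1.68 without tumor 1. By early minus late, 5 of 14 luminal genes were lower (5.91% of all genes, 1449) and 3 of 15 basal genes higher (4.34%, 1065) at an unadjusted p under 0.05, and limma called 0 of all genes after adjustment. Rbm47, an RNA-binding protein and 1 of the 3 genes of smallest p in the lower direction of early minus late, is a description chosen on that contrast, like Fn3k and Akr1b10 below. It measured 1.24, -0.37 and -0.42 in early HFD-LFD against 0.84 to 1.93 in early HFD. In late tumors it measured 1.05 to 2.12 in HFD-LFD against 0.22 to 0.77 in HFD, and early minus late was -2.19 ± 0.49 (adjusted p = 0.38).

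The remaining genes named for the early minus late contrast were not called either. H2-M9, a non-classical MHC class I gene, measured 1.01 to 1.48 in late HFD tumors against -0.05 to 0.55 in late HFD-LFD tumors, while early tumors of the regimens overlapped. Fn3k, which repairs glycated proteins, lay the other way, from -1.69 to -1.35 in late HFD tumors and from -1.17 to -0.19 in late HFD-LFD tumors. The contrast of early minus late was 1.39 for H2-M9, 1.29 for Palm, -1.61 for Fn3k and -1.78 for Akr1b10, each with an adjusted p of 0.38.

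The remaining lists held few genes at p under 0.05. Hormone receptors and their targets had 9 of 12 below 0, beside 52% of all genes (median -0.25) with the estrogen-induced growth factor Areg at -1.59 ± 0.66, and milk protein genes 8 of 10 (median -0.71) with Xdh at -0.76. Factors of epithelial-mesenchymal transition and their antagonists had 10 of 13 below 0 (median -0.23), with Twist2 at -0.68. Among circadian clock genes (median -0.03), Clock differed by -0.87 ± 0.24. The detoxifying enzyme Nqo1 differed by -0.99 in an oxidative stress list whose median was 0.00. Over all tumors the basal integrin Itga6 differed by 0.62 and the wound keratin Krt6a by -1.35. Apoptosis (median 0.01) and glycolysis and hypoxia genes (0.05) lay near the median of all genes.

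The design also allows the effect of dropping HFD to be compared with that of staying on LFD rather than moving to it. The contrast takes the HFD-LFD minus HFD difference and subtracts the LFD minus LFD-HFD difference, so that both sides set an adult LFD against an adult HFD, after a pubertal HFD in the first and a pubertal LFD in the second. By arithmetic this equals the summed means of the 2 regimens with a switch at week 10 minus the summed means of the 2 without. The contrast is thus 2 times the difference between the average switched and the average unswitched regimen. It was the one contrast with many calls, with 62 genes higher (0.253%) and 91 lower (0.371%) of 24519. With slide as a random block, 9 of these 153 genes passed, 3 higher and 6 lower, and with median centring 2 of them.

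Rmrp was among the called genes. Its mean was 1.49 ± 0.41 (SD) in HFD-LFD and 1.37 ± 0.35 in LFD-HFD, and 0.58 ± 0.32 in HFD and 0.49 ± 0.31 in LFD, so that both switched regimens were high. The contrast was 1.78 ± 0.26 (adjusted p = 0.00132). Nanog, a transcription factor of pluripotent cells, had means of 1.14 and 1.11 in the switched and 0.63 and 0.45 in the unswitched regimens, a contrast of 1.17 ± 0.21 (adjusted p = 0.0225). Nanog has near-identical copies in the genome, so which copy gave the signal is not known. Zfp260 had means of 0.55 and 0.47 against 0.03 and 0.03, a contrast of 0.95 ± 0.18 (adjusted p = 0.0327).

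In the other direction, Btg1c had means of -0.48 in HFD-LFD and -0.78 in LFD-HFD against 0.53 in HFD and 0.12 in LFD, a contrast of -1.92 ± 0.27 (adjusted p = 0.00132), or -3.41 with processed signals. Prss48, a serine protease gene, had means of -0.99 and -1.31 in the switched and -0.37 and -0.24 in the unswitched regimens (contrast -1.70 ± 0.25, adjusted p = 0.00132). Gsk3a, one of the kinases that act on glycogen synthase, had -0.22 and -0.42 against 0.16 and 0.11 (contrast -0.92 ± 0.15, adjusted p = 0.00857). These 6 genes, the 3 of smallest p in each direction, passed with slide as a random block too. Except for 1 slide, each slide of the epithelial tumors held a single regimen, so that fit cannot separate slide from regimen. Btg1c and Prss48 passed in all 27 alternatives, whereas the other 4 were not called with median centring. These alternatives left out single HFD-LFD or HFD tumors but no LFD or LFD-HFD tumor, so they cover 1 side of the contrast.

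A single slide held HFD tumors 3 and 6 beside 2 LFD-HFD tumors, which allows values within a slide. There Rmrp was 0.68 and 0.48 in HFD against 1.36 and 1.29 in LFD-HFD, and Btg1c 0.74 and 1.34 against -0.93 and -0.95. The pairs did not overlap in any of the 6 genes, but the genes were chosen on a contrast that holds these tumors, and on this slide both HFD tumors were late and both LFD-HFD tumors early, so that onset and regimen cannot be told apart there. No slide held HFD-LFD with HFD tumors, so the same could not be read for the comparison of the 15 tumors.

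**Figure D5:**
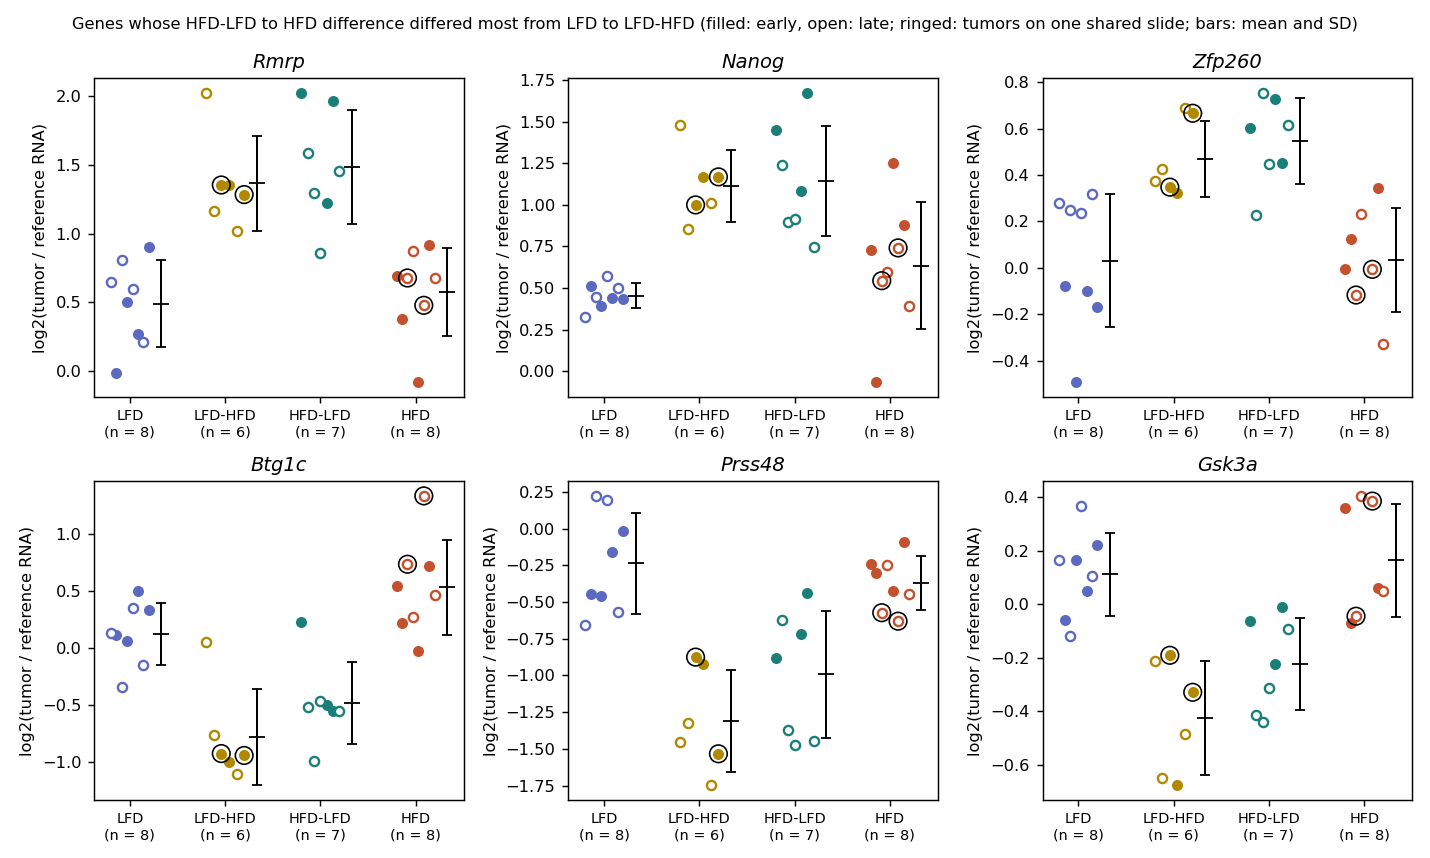
Log2 ratio of tumor to reference RNA for the 6 genes of smallest p in the contrast of switched with unswitched regimens, in all 29 epithelial tumors, filled for early and open for late, with mean and SD; ringed points share a slide. Rmrp, Nanog and Zfp260 have higher means, and Btg1c, Prss48 and Gsk3a lower means, in LFD-HFD and HFD-LFD than in LFD and HFD.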

How the data were processed

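Arrays in 2 colors compared each of 41 tumors with the same mouse reference RNA. For them the authors deposited scanner files with red and green intensity per spot (Feature Extraction 11.0.1.1 or 10.5.1.1 per the file headers, 8.5.1.1 per the labels), a log10 ratio per spot, and a matrix of lowess-normalized, filtered and imputed log2 ratios. The log10 ratios, as deposited, served to check the direction and names of the matrix. Probe positions are those of build NCBI37.

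In R 4.3.3, limma 3.58.1 applied normexp (offset 50) and loess; outlier spots (2.73% of gene values in the 15 tumors) were left missing. Of 39429 probes, 32113 had a signal over 10 above background in both channels on 80% of arrays, and the brightest probe of each gene was kept, giving 24519 genes. The 29 epithelial tumors were fitted together with lmFit and eBayes, Benjamini-Hochberg adjustment and a limit of 0.10, in place of the authors' SAM, which was not run. Genes named were the 10 of smallest p in each direction, 6 in any case, the extreme members of each list at p under 0.05 and the leading genes of each interaction; further list members are given as examples, and a few genes that the rule names are not reported here. The members and lists were chosen with earlier results of these data known. The fits were tested on simulated data. P-values measure the spread between tumors, of which some may share a mouse.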

Additional observations from a re-analysis of the deposited data

Results flagged for a closer look

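Of 178 sets of values tested for a tumor apart from its group, 14 had one, where chance flags about 1 in 20 groups, or 8.9. HFD tumor 5 accounted for 6 of them. It stood apart in the mean ratio of oxidative stress (0.846), apoptosis (0.984), endothelial (0.555), mitochondrial respiratory chain (-2.86) and ribosomal protein genes (-0.675) and in its share of outlier spots (22.02%), while in HFD-LFD tumor 7 that share was 8.04%. In single genes, HFD tumors stood apart for Bax (tumor 2, -0.57), Birc5 (tumor 4, -1.06) and Igfbp3 (tumor 8, 1.54), and HFD-LFD tumors for Btg1c (tumor 1, 0.23), Gtdc1 (tumor 6, 0.44), Thbs2 (tumor 6, -2.84) and the T and NK cell list (tumor 5, -0.319).

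In the contrast of switched with unswitched regimens, which sets the difference of an adult LFD from an adult HFD after a pubertal HFD against that after a pubertal LFD, 62 genes were called higher and 91 lower. Of these 153, 9 passed when slide was a random block and 2 after median centring. Of the genes named here, 18 passed, of which 6 (Rmrp, Nanog, Zfp260, Btg1c, Prss48 and Gsk3a) also passed with the slide block and only Btg1c and Prss48 with median centring. The contrast was above 0 for Rmrp (1.78), Arl5b (1.48), Nanog (1.17), Macroh2a2 (1.07), Fam126b (1.04), Cox7a2 (0.96), Zfp260 (0.95), Esf1 (0.72), Nop56 (0.64) and Rps16 (0.62). It was below 0 for Btg1c (-1.92), Prss48 (-1.70), Slc26a2 (-1.39), Cercam (-1.18), Gsk3a (-0.92), Cdk10 (-0.88), Mafk (-0.88) and Fbxl6 (-0.85). All but Nanog, Prss48 and Gsk3a were named for the comparison of HFD-LFD with HFD, which is one side of this contrast. The contrast values are 2 times the difference between the average switched and the average unswitched regimen.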

How the results depend on the processing

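No paired analysis was possible because the regimens share no number in the labels of these tumors. In HFD-LFD against HFD (0 genes called), the scanner's processed signals gave 5, values with no background correction 4, the authors' matrix 164, and the fit less HFD tumors 2 and 5 gave 1. Leaving out 1 tumor gave 0 to 2, the most less HFD-LFD tumor 4. For early tumors (0 called) the counts were 55 from processed signals, 69 from the matrix, 1 under the matrix names, and 0 to 72 less 1 tumor, the most less HFD-LFD tumor 1. For late tumors (1 called) they were 2 from processed signals, 28 uncorrected for background, 2 under median centring, 2 when outlier spots were kept, 3 for slide as a random block, 23 from the matrix, 5 less HFD tumors 2 and 5, and 0 to 22 less 1 tumor, the most less HFD-LFD tumor 4. For early minus late (0 called) they were 7 from processed signals, 1 under median centring, 3 from the matrix, 1 under its names, and 0 to 64 less 1 tumor, the most less HFD-LFD tumor 1. For switched against unswitched regimens (62 higher, 91 lower), a limit of 0.05 gave 38 called, processed signals 247, no background correction 337, median centring 2, the matrix 525, slide as a random block 9, averaging of tumors that share a number 97, the fit less HFD tumors 2 and 5 gave 271, and leaving out 1 tumor 56 (HFD tumor 8) to 221 (HFD tumor 5). The cause of these moves was not tested. Single tumors left out were always HFD-LFD or HFD tumors, never LFD or LFD-HFD tumors. Of the 153 genes called for switched against unswitched regimens, 1 changed sign, with the mean over a gene's probes, and Cdk6 in late tumors kept its sign in 27 of 27 alternatives. Contrasts moved by over 1.5 times for Btg1c (to -3.41, processed signals), Esf1 and Macroh2a2 (to 0.41 and 0.69, median centring) and Nop56 (to 0.37, mean over probes). None of the 20 leading genes of HFD-LFD against HFD changed direction, which their choice on these same tumors favors. The matrix called 11 of them, beside 164 of 24462 genes in all. No scaling moved the median of all genes by over 0.1. The fit less HFD tumor 5 and HFD-LFD tumor 7 and the alternatives for gene lists were chosen after seeing the data. Dim probes and the number of tumors limit the precision.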
